A study of Mus musculus with 40 samples.

Results

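Gene expression 24 h after a second closed head injury was compared with that after sham treatment in somatomotor cortex, taken from the left side, of female 3xTg-AD mice, a model of Alzheimer's disease that carries mutant human APP and MAPT transgenes. The comparison held 7 of the 40 samples of the series, namely 3 labelled 2xCHI at 24 h (numbered 19, 21 and 29) and 4 labelled sham (numbered 6, 20, 35 and 39) and grouped by these labels. In the closed head injury (CHI) model a weight dropped on the intact skull of an anesthetized mouse rotates the freely moving head, and injuries were given once daily, so the 2xCHI samples were taken 48 h after the first injury. Shams received the anesthesia without the impact, differed in how many times they received it and were labelled 0 h. Every group was female, was 2 to 4 months old, had a C57BL/6J background and carried these transgenes, so the data hold no wild-type mouse. The APP and MAPT transgenes are driven by a neuronal Thy1 promoter. All 3 injured samples but only 3 of the 4 shams have numbers above 18, and results are therefore also given without sham 6. In the text, values of a gene are CPM (counts relative to the effective library size) in the order of samples 19, 21 and 29 for 2xCHI and 6, 20, 35 and 39 for sham.

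Oligodendrocytes wrap axons in myelin, and they arise throughout adult life from oligodendrocyte precursor cells, which divide in response to platelet-derived growth factor. A rotating head strains the long axons of the brain, and white matter is a known site of damage in repeated mild injury. Astrocytes and microglia react to injury by expressing cytoskeletal, complement and cytokine genes, and neurons respond to activity by transcribing immediate early genes within minutes. Bulk RNA of cortex mixes all these cells, so that fewer cells of a type and less RNA per cell cannot be told apart.

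No gene differed between 2xCHI and sham at an adjusted p under 0.05 in edgeR's quasi-likelihood test, whether all 4 shams (0 of 15224 genes, 0%) or the 3 shams without sample 6 (0%) were used. At an unadjusted p under 0.05, 1317 genes (8.65%) differed, of which 627 (4.12%) had a higher level and 690 (4.53%) a lower level after injury. Without sham 6 there were 1298 such genes (8.53%), 618 of them higher (4.06%) and 680 lower (4.47%). The count was 2734 without injured sample 19, 658 without sample 21 and 666 without sample 29. The CPM of the groups did not overlap for 691 genes higher in every injured sample (4.54%) and 583 genes lower in every injured sample (3.83%). DESeq2, run on the same counts as an alternative, called 38 of 14633 genes (0.26%) at an adjusted p under 0.05, 35 lower and 3 higher, and all 38 also had an unadjusted p under 0.05 in edgeR. Without sham 6 DESeq2 called 14 genes (0.0957%), 7 of which were among the 38. The other 7 were Gm11518, a processed pseudogene (adjusted p = 5.59e-12), Acta2, Gm4070, Gm43079, Ndufa5 (adjusted p = 0.0274), Myh11 and Npas4 (adjusted p = 0.0463). Below, unless stated otherwise, a gene called higher or lower is one with an unadjusted p under 0.05 in edgeR, and each value is a log2 difference with its standard error (SE). None of these genes passed the adjustment: their adjusted p lay between 0.562, the smallest over all genes, and 0.575. An exact permutation test of 3 against 4 samples cannot give a two-sided p below 0.0571.

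The samples held between 17903140 and 27859530 summed counts. Cortical excitatory markers were high in every sample, with 1181 to 1220.2 CPM of Slc17a7, the vesicular glutamate transporter of cortical projection neurons, in the injured samples and 1066 to 1213 CPM in the shams. Summed levels of 12 striatal markers reached 1158 CPM in sham 39 against 252 to 309 CPM in the other shams and 304 to 660 CPM after injury. Summed levels of 3 choroid plexus markers were 17.4 to 144 CPM after injury and 6.72 to 20.0 CPM in sham. The human MAPT row held 465, 477 and 478 counts after injury and 273, 596, 437 and 581 counts in sham, a log2 difference of -0.01 (95% interval -0.48 to 0.46). The human APP row was listed at 0 in all 7 samples.

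Genes of oligodendrocyte precursor cells were among those with lower levels after the second injury. Of the 12 precursor genes tested, 3 were lower at an unadjusted p under 0.05 and none was higher, that is 25% of the list against 4.53% of all genes, and all 12 had a negative log2 difference. The median of the list was -0.18, beside -0.0016 over all genes tested, and it was -0.14 without sham 6, when the same 3 genes had an unadjusted p under 0.05. Pdgfra, the receptor for platelet-derived growth factor that marks these precursors, had 37.4, 33.4 and 29.5 CPM after 2xCHI and 47.9, 42.1, 46.4 and 47.9 CPM in sham. Every injured sample was below every sham, and the level was 27.4% lower (log2 difference -0.46, SE 0.10). Gpr17, a receptor of precursors that have begun to differentiate, had 30.8, 24.7 and 31.0 CPM after injury and 40.9, 40.9, 41.3 and 36.9 CPM in sham. Its groups did not overlap either, and its log2 difference was -0.48 (SE 0.10). Vcan, which encodes the matrix proteoglycan versican, had 13.9, 13.5 and 14.0 CPM after injury, below all shams at 19.3, 15.8, 19.5 and 19.8 CPM (log2 difference -0.43, SE 0.11). DESeq2 called Pdgfra and Gpr17 (adjusted p = 0.0278 for both) but not Vcan (adjusted p = 0.130), and without sham 6 it called neither (adjusted p = 0.143 for Pdgfra and 0.133 for Gpr17). The lineage transcription factors Olig1 and Olig2, the transcription factor Sox10 and the proteoglycan gene Cspg4 had log2 differences of -0.16, -0.19, -0.29 and -0.18, none past the unadjusted threshold. Without sham 6 the values of Olig1 and Cspg4 were -0.11 and -0.06.

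Myelin genes had a similar distribution. Of the 15 tested, 3 were lower at an unadjusted p under 0.05 (20%, beside 4.53% of all genes), none was higher, 14 had a negative log2 difference and the median was -0.27, beside -0.0016 over all genes. Ugt8a encodes the enzyme that makes galactosylceramide, the main glycolipid of myelin, and was measured at 35.0, 33.2 and 33.6 CPM after injury and 49.8, 42.6, 43.7 and 41.2 CPM in sham. The injured samples lay close together below all shams (log2 difference -0.39, SE 0.09, DESeq2 adjusted p = 0.0473 with all shams and 0.245 without sham 6). Tspan2, a tetraspanin of the oligodendrocyte membrane, had 102, 106 and 100.1 CPM after injury and 162, 151, 119 and 132 CPM in sham, again without overlap (log2 difference -0.46, SE 0.11, DESeq2 adjusted p = 0.0340 with all shams and 0.146 without sham 6). Mal, a membrane proteolipid of myelin, had a log2 difference of -0.37 (SE 0.16) with overlapping groups, and it did not pass the unadjusted threshold without sham 6. Other myelin genes did not pass the unadjusted threshold. Mbp, myelin basic protein, had 1614, 2639.7 and 2378 CPM after injury and 2759, 2940.3, 2044 and 2260.3 CPM in sham (log2 difference -0.18, 95% interval -0.57 to 0.21). Mog, a surface glycoprotein of myelin, had a log2 difference of -0.19 (SE 0.17), and one of 0.0023 without sham 6, which had its highest value (65.6 CPM). All 15 myelin and all 12 precursor genes were detected in every sample, and their summed levels overlapped between groups, at 4521 to 6644 CPM after injury against 5586 to 7920 CPM in sham for myelin and 356 to 453 CPM against 437 to 519 CPM for precursors. Injured sample 19 had the lowest sum of both lists. Without sham 6 the median of the myelin list was -0.17 and 2 genes, Ugt8a and Tspan2, had an unadjusted p under 0.05, and when all 39 samples of the series shared the fit 1 myelin gene did. After removal of a trend with transcript length, described below, 5 precursor and 7 myelin genes were lower at an unadjusted p under 0.05, where 3.13% of all genes were.

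**Figure D1:**
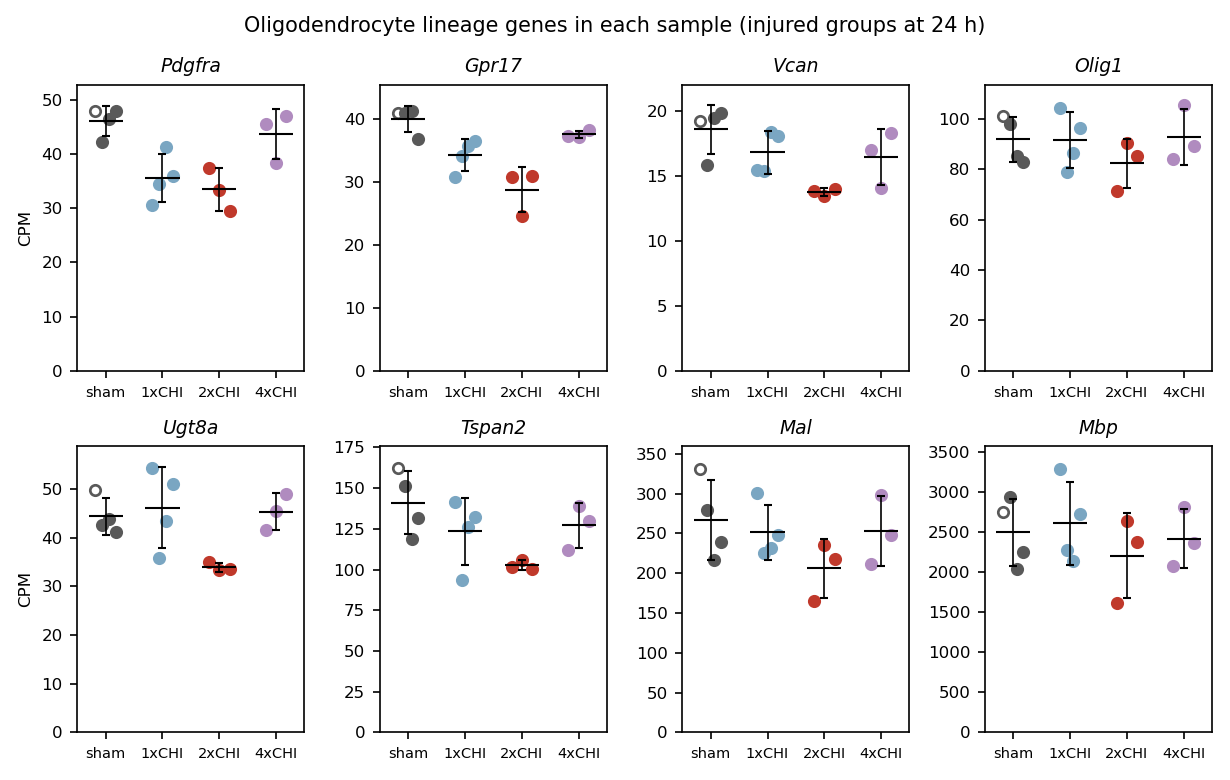
Levels of 8 oligodendrocyte lineage genes in CPM (linear axes from 0) in sham (n = 4) and, 24 h after injury, 1xCHI (n = 4), 2xCHI (n = 3) and 4xCHI (n = 3). Points are samples, the open circle is sham 6, horizontal lines are means and error bars 1 SD. For Pdgfra, Gpr17, Vcan, Ugt8a and Tspan2 every 2xCHI sample is below every sham, while these groups overlap for Olig1, Mal and Mbp.

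The promoters of 3 of these genes are shown because the genes were lower together, with the 250 bases before the annotated start from RefSeq on GRCm38.p6, 5′ to 3′ on the strand of the gene. All 3 genes asked for were matched. The windows were chr5:75152001-75152250 on the plus strand for Pdgfra, chr3:102734520-102734769 on the plus strand for Tspan2 and chr3:125938653-125938902 on the minus strand for Ugt8a. Capitals mark matches, on either strand, to the SOX core motifs ACAAAG and ACAATG or to the E-boxes CAGCTG and CATATG, motifs of the kinds bound by SOX and OLIG factors of this lineage.
Pdgfra: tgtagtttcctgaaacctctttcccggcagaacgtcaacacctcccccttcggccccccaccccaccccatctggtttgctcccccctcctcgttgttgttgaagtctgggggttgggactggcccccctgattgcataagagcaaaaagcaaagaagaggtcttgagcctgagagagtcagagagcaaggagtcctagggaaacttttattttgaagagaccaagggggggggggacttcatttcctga
Tspan2: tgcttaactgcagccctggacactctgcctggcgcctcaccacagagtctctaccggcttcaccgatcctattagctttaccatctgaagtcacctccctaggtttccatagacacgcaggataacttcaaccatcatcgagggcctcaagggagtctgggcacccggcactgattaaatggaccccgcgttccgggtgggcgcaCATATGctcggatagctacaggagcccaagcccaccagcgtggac
Ugt8a: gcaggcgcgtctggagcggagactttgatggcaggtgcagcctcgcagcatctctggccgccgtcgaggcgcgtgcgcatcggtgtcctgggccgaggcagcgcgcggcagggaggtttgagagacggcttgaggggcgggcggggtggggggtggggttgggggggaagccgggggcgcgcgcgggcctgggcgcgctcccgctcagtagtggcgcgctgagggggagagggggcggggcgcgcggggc
One match was found, an E-box CATATG that begins 45 bases before the RefSeq start of Tspan2, and no other match to the 4 motifs occurs in these windows. GENCODE M21, which gave the gene positions elsewhere in the text, starts Tspan2 at chr3:102734529, inside this window. By that annotation the match lies after the start of the gene. Over 32851 windows of the same length, 16.5% hold ACAAAG, 10.7% ACAATG, 13% CAGCTG and 3.46% CATATG. The GC content was 54.4% for Pdgfra, 57.2% for Tspan2 and 76.8% for Ugt8a, beside a median of 52.4% over the windows.

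Among all genes whose groups did not overlap, the 12 lower genes with the smallest p-values included a pro-apoptotic gene, a p53 kinase gene and 2 chromatin genes. Zfp264, annotated as a transcribed unprocessed pseudogene at chr7:6977246-6991087, had 0.629, 0.871 and 0.694 CPM after 2xCHI and 3.06, 1.89, 3.39 and 1.92 CPM in sham, a level 71.0% lower (log2 difference -1.79, SE 0.31). As a pseudogene in a zinc finger family its reads can be shared with near copies, and its level is uncertain for that reason. Hrk, which encodes harakiri, a BH3-only protein that promotes neuronal apoptosis, lies at chr5:118164648-118189478 and had 17.4, 21.4 and 17.3 CPM after injury and 33.3, 30.9, 26.9 and 26.3 CPM in sham. The groups did not overlap, the level was 36.3% lower (log2 difference -0.65, SE 0.12), and it was so without sham 6 (log2 difference -0.59). Hipk2, a kinase that phosphorylates p53, had 19.0, 16.8 and 16.4 CPM after injury and 25.4, 26.1, 40.6 and 34.9 CPM in sham (log2 difference -0.87, SE 0.17). Slc47a1, which encodes the transporter MATE1, had 2.18, 1.52 and 1.5 CPM after injury and 4.20, 6.07, 3.44 and 3.89 CPM in sham (log2 difference -1.35, SE 0.26), and Adamtsl3, an extracellular matrix protein gene, one of -1.25 (SE 0.25) from levels of about 1 to 2 CPM. All injured values of these 5 genes were below all sham values.

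Of the other 7 genes, 6 were lower by less than 0.5 on the log2 scale. Vps13c, a bridge-like lipid transfer protein, had a log2 difference of -0.38 (SE 0.07), Ubr4, an E3 ubiquitin ligase, one of -0.36 (SE 0.07) and Kmt2c, a histone H3 lysine methyltransferase, one of -0.36 (SE 0.07). The values were -0.47 for Bahcc1, a chromatin reader (SE 0.09), -0.37 for the tyrosine kinase gene Abl1 (SE 0.07) and -0.39 for Nfat5, the transcription factor of the osmotic stress response (SE 0.08). Gm2026, a gene model and the exception, had a log2 difference of -0.71 (SE 0.13). With the length trend described below removed, the log2 differences of Vps13c, Ubr4, Kmt2c and Nfat5 were -0.23, -0.20, -0.19 and -0.22. DESeq2 called all 12 of these genes. Without sham 6 it called 5 of them, Hrk, Hipk2, Vps13c, Ubr4 and Slc47a1, and no longer Zfp264 (adjusted p = 0.0624), Gm2026, Kmt2c, Nfat5, Abl1, Bahcc1 or Adamtsl3 (adjusted p from 0.0675 to 0.151). Other genes that it called, picked for mention after their values were seen, were Abca2, a lipid transporter abundant in oligodendrocytes (log2 difference -0.32, SE 0.08), Adamts4, a metalloproteinase of mature oligodendrocytes (-0.67, SE 0.16), the semaphorin gene Sema6d (-0.34, SE 0.08), the cytoskeletal linker gene Dst (-0.38, SE 0.09) and Kcnma1, the large-conductance calcium-activated potassium channel (-0.27, SE 0.07). Of these 5, DESeq2 called Dst without sham 6 (adjusted p = 0.0463) and did not call the others. The median exonic length of the 38 genes that DESeq2 called was 8045 bases, beside 4336 bases over all genes tested.

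The corresponding 12 genes of higher level included secretory, mitochondrial and ribosomal genes, all but Hdc and Epb41l4aos with a log2 difference below 0.7. Car4, a membrane-anchored carbonic anhydrase, had 25.8, 25.6 and 28.6 CPM after injury and 19.8, 19.5, 19.8 and 21.0 CPM in sham, so that every injured sample exceeded every sham (log2 difference 0.41, SE 0.08, DESeq2 adjusted p = 0.0449 with all shams and 0.226 without sham 6). Scg5, a chaperone of the prohormone convertase PC2 in secretory granules, had 216, 234 and 230.5 CPM after injury and 161, 181, 158 and 191 CPM in sham (log2 difference 0.39, SE 0.09, DESeq2 adjusted p = 0.0289 with all shams and 0.148 without sham 6). Hdc, histidine decarboxylase, which makes histamine, had 1.40, 1.61 and 2.46 CPM after injury and 0.437, 0.893, 0.376 and 0.901 CPM in sham, the largest difference among the 12 leading genes of higher level (log2 difference 1.44, SE 0.36) at a level near 1 CPM. Ndufa5, a subunit of respiratory complex I, had 32.2, 42.3 and 38.0 CPM after injury and 30.4, 21.9, 24.4 and 26.4 CPM in sham (log2 difference 0.54, SE 0.13). Rpl35, a protein of the large ribosomal subunit, had a log2 difference of 0.38 (SE 0.09), the selenoprotein gene Selenow one of 0.40 (SE 0.10) and the small hydrolase gene Hint1 one of 0.32 (SE 0.08). Rpl17-ps3, named as a pseudogene of a ribosomal protein gene, had a log2 difference of 0.67 (SE 0.16) that is uncertain because its reads can belong to the parent gene. Tmem14a, Rtl8a, C1qtnf4 and Epb41l4aos completed the 12, with log2 differences of 0.35, 0.33, 0.40 and 0.93. With the length trend removed the values of Scg5, Ndufa5, Rpl35, Rpl17-ps3 and these 4 were 0.26, 0.35, 0.22, 0.38, 0.20, 0.16, 0.24 and 0.58, the last not past the unadjusted threshold.

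**Figure D2:**
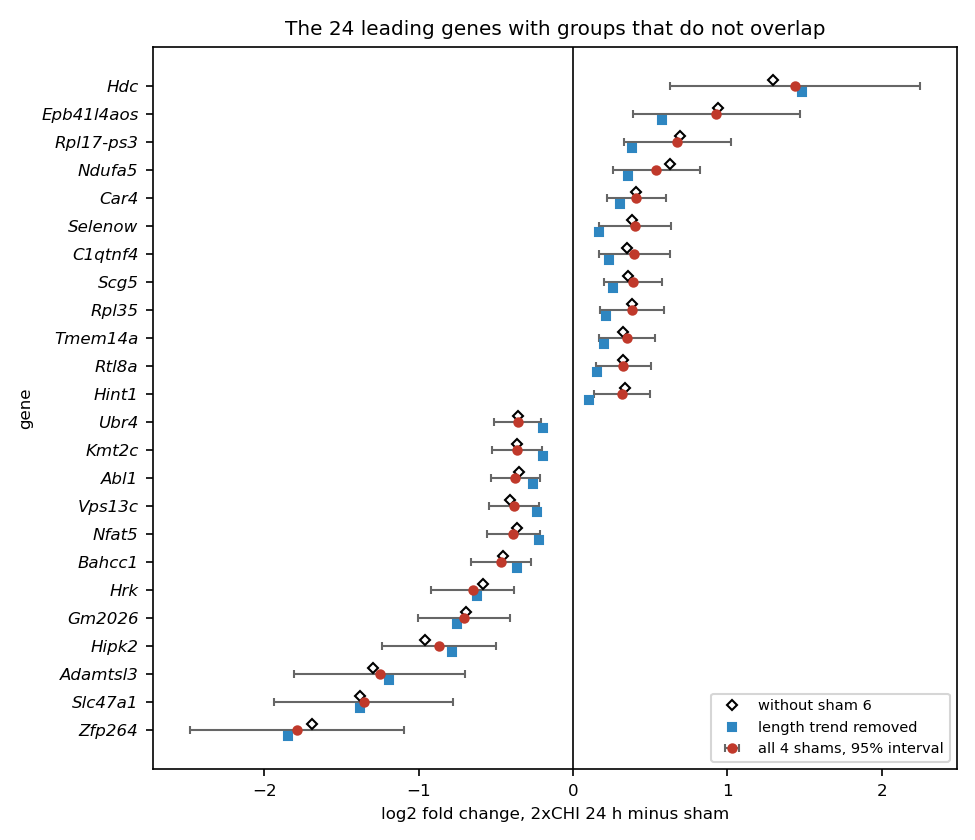
Leading genes of lower and higher level after 2xCHI: the log2 difference of 2xCHI 24 h (n = 3) from sham (n = 4), with 95% intervals from the edgeR fit, for the 12 leading genes per direction, ordered by that difference (red points, grey bars). Open diamonds leave out sham 6 and blue squares remove the length trend. Zfp264 has the largest lower value (-1.79) and Hdc the largest higher value (1.44), and no gene shown has an adjusted p under 0.05.

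Genes of oxidative phosphorylation and of ribosomes had the largest counts on the higher side. Of the 84 nuclear genes of the respiratory chain, 35 were higher at an unadjusted p under 0.05 and none was lower, where 4.12% of all genes were higher, and the median log2 difference was 0.22. Of 82 cytosolic ribosomal protein genes, 33 were higher and none lower with a median of 0.23, and of 78 mitochondrial ribosomal protein genes 15 were higher and none lower with a median of 0.16. Of the 31 proteasome genes 5 were higher and none lower (median 0.12), and of the 13 genes transcribed from the mitochondrial genome 1, mt-Nd6, was higher (log2 difference 0.41, SE 0.13; list median 0.17). Examples from the respiratory chain were Ndufa4, with 159.7, 204 and 191 CPM after injury and 142, 135, 149.8 and 158 CPM in sham (log2 difference 0.34, SE 0.10), and Cox8a, a subunit of cytochrome c oxidase, with a log2 difference of 0.33 (SE 0.09). The summed level of the respiratory chain list was 8710.4 to 9902 CPM after injury and 8134 to 8545 CPM in sham, without overlap, whereas that of the cytosolic ribosome list was 9756 to 12715 CPM against 9190.0 to 10476 CPM, with overlap. Without sham 6, 29 respiratory chain, 22 cytosolic ribosomal and 10 mitochondrial ribosomal genes had an unadjusted p under 0.05 in the higher direction. The proteasome count was then 2, and with the length trend described below removed it was 0 (median 0.05). These counts depended on the injured samples, since without sample 19 they were 57, 65 and 29, and without sample 21 they were 4, 3 and 4.

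These lists consist of short transcripts, and the difference between the groups followed transcript length over all genes. With the genes divided into 5 bins of like size by exonic length, the median log2 difference was 0.14 in the shortest, then 0.05, 0.0018, -0.04 and -0.10 in the longest. The shortest bin held 379 genes of higher and 31 genes of lower level at an unadjusted p under 0.05, and the longest 9 of higher and 389 of lower level. The slope of each sample's log2 CPM on log2 exonic length, relative to the mean of the 7 samples, was 0.000537, -0.10 and -0.048 in the injured samples and -0.010, 0.063, 0.054 and 0.042 in the shams. Among shams, only sham 6 had a slope below that of injured sample 19. With this trend removed from the fit, 6 respiratory chain, 9 cytosolic ribosomal and 6 mitochondrial ribosomal genes were higher at an unadjusted p under 0.05, where 2.12% of all genes were, and the medians were 0.07, 0.11 and 0.07. The median of the mitochondrial genome list was then -0.03, with 0 of its 13 genes past the threshold. Pdgfra, Gpr17, Ugt8a, Tspan2 and Hrk kept an unadjusted p under 0.05 in that fit, with log2 differences of -0.37, -0.46, -0.38, -0.45 and -0.62. Of the 89 genes given with values in the text that had an unadjusted p under 0.05 against sham, 26 did not have one with the trend removed. Among these were Cox8a, mt-Nd6, Hint1, Selenow and Nrgn, with log2 differences of 0.07, 0.14, 0.11, 0.17 and 0.17, the metallothionein genes Mt1 and Mt3 (0.16 and 0.20), S100a10 (0.13) and the long genes Dst and Kcnma1 (-0.13 and -0.12). RNA integrity values were not analysed here.

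**Figure D3:**
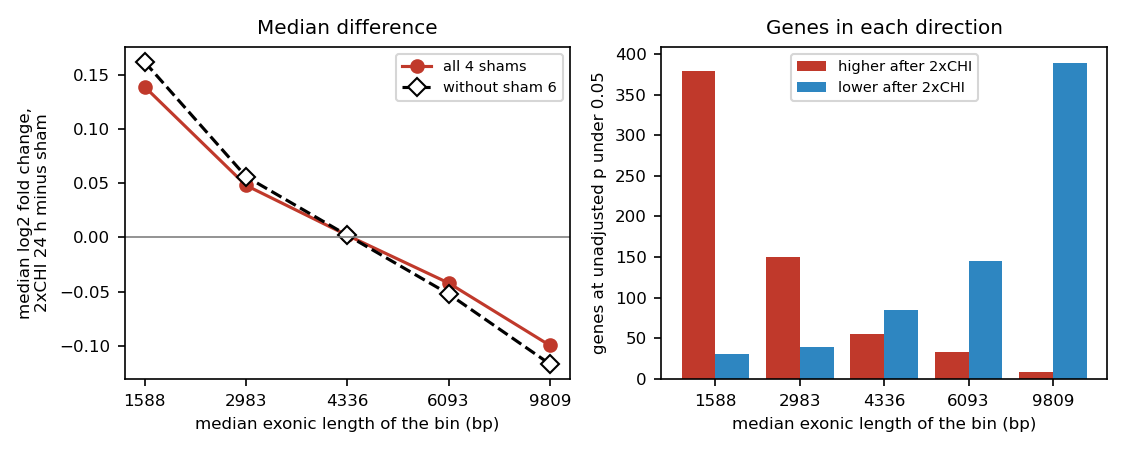
Log2 difference of 2xCHI 24 h from sham by exonic length, with genes in 5 bins from shortest to longest: the median in each bin, and the numbers of genes of higher (red) and lower (blue) level at an unadjusted p under 0.05. Open diamonds leave out sham 6, and the horizontal axis gives the median length of each bin in bases. The median goes from 0.14 in the shortest bin to -0.10 in the longest, and the higher genes from 379 to 9.

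Of the lists of neuronal genes, each held at most 3 genes at an unadjusted p under 0.05. Of the 20 neuronal identity genes 3 were higher at an unadjusted p under 0.05 and none lower, that is 15% of the list where 4.12% of all genes were higher, with a list median of 0.02. Without sham 6, 2 were higher and 1, Map2, was lower. Snap25, a SNARE protein of vesicle release, had 3418, 3541 and 3604 CPM after injury and 2926, 3204, 3046 and 3118 CPM in sham, without overlap (log2 difference 0.19, SE 0.07), Rbfox3, which encodes NeuN, a log2 difference of 0.27 (SE 0.09) and Nrgn, the postsynaptic calmodulin-binding protein neurogranin, one of 0.33 (SE 0.12). Among 12 interneuron genes, 2 neuropeptides were higher (16.7%). Npy, neuropeptide Y, had 60.4, 63.5 and 62.5 CPM after injury and 46.0, 39.7, 55.8 and 48.1 CPM in sham (log2 difference 0.39, SE 0.11), and Sst, somatostatin, had 163, 170.5 and 179 CPM after injury and 154, 137, 141 and 121 CPM in sham (log2 difference 0.31, SE 0.09). For both peptides every injured sample exceeded every sham. Pvalb, the calcium buffer of fast-spiking interneurons, had a log2 difference of 0.24 (95% interval -0.05 to 0.53). With the length trend removed the log2 differences were 0.13 for Npy and 0.08 for Sst, neither past the unadjusted threshold. Of 17 growth factor and neuropeptide genes 2 were higher (11.8%, beside 4.12% of all genes). The count was 1 without sham 6 and 0 with the length trend removed. Pdyn, the precursor of dynorphin, had a log2 difference of 0.46 (SE 0.18), and Bdnf, the neurotrophin gene, one of 0.05 (95% interval -0.36 to 0.46). Of 12 cortical layer genes 1, Tle4, a deep-layer transcriptional corepressor gene, was lower (-0.19, SE 0.08), that is 8.33% of the list beside 4.53% of all genes.

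Immediate early genes, which report recent neuronal activity, had a median log2 difference of -0.34 over 24 genes, of which 18 were negative and 2 were lower at an unadjusted p under 0.05 (8.33%, beside 4.53% of all genes). Npas4, an activity-dependent transcription factor of neurons, had 14.4, 16.8 and 7.90 CPM after injury and 15.5, 38.6, 27.2 and 19.2 CPM in sham, with overlap between groups (log2 difference -0.95, SE 0.32). Btg2, an antiproliferative early response gene, had a log2 difference of -0.86 (SE 0.30). Fos had 38.9, 9.23 and 22.0 CPM after injury and 18.3, 73.6, 33.9 and 18.7 CPM in sham, a wide spread in both groups (log2 difference -0.65, 95% interval -1.86 to 0.56). Arc, a regulator of synaptic AMPA receptors, and Egr1 had log2 differences of -0.76 (SE 0.49) and -0.13 (SE 0.41), neither past the unadjusted threshold. Sham 20 had the highest value of Junb, 131 CPM against 46.8 to 53.2 CPM in the other shams, and of Fos. Without sham 6, 4 of the 24 genes were lower at an unadjusted p under 0.05.

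Of 25 glutamate and GABA receptor genes, 2 were lower at an unadjusted p under 0.05 (8%, beside 4.53% of all genes) and 21 had a negative difference (median -0.07). They were Gabrb1, a GABA-A receptor subunit (log2 difference -0.34, SE 0.09), and Grik2, a kainate receptor subunit (-0.23, SE 0.09). Without sham 6 Grik2 did not pass the unadjusted threshold (-0.21), and 2 genes of the list were lower. Of 13 axonal and cytoskeletal genes 2 were lower (15.4%), Kif5a, a kinesin heavy chain of axonal transport (-0.24, SE 0.08), and Map1b, a microtubule-associated protein (-0.20, SE 0.09). With the length trend removed Grik2 and Map1b had log2 differences of -0.10 and -0.05 and did not pass the unadjusted threshold. Transcripts of receptors and channels are long, with median exonic lengths of 6686 and 11697 bases in the lists, and the list medians were -0.01 and 0.01 after removal of the length trend.

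Gfap, the intermediate filament of reactive astrocytes, had 141, 118 and 137 CPM after injury and 148, 175, 133 and 125 CPM in sham, with overlap (log2 difference -0.14, 95% interval -0.40 to 0.13). Vim, vimentin, had a log2 difference of 0.10 (SE 0.18) and Serpina3n, a serine protease inhibitor of reactive astrocytes, one of -0.29 (SE 0.18), and none of these 3 passed the unadjusted threshold. Of 9 pan-reactive genes 1 had an unadjusted p under 0.05 (11.1%, beside 4.53% of all genes lower). This was Osmr, the oncostatin M receptor, with 3.24, 2.57 and 3.04 CPM after injury and 3.77, 3.79, 4.08 and 4.06 CPM in sham (log2 difference -0.41, SE 0.17). With the length trend removed Osmr did not pass the unadjusted threshold (-0.30). The median of the pan-reactive list was 0.09, that of the A2 list 0.08 and that of the A1 list -0.23, with 10 of its 11 genes negative. Of the 8 genes of the A2 list S100a10 was higher (0.30, SE 0.11), that is 12.5% beside 4.12% of all genes. Of the 11 genes of the A1 list the interferon-inducible GTPase Iigp1 was lower (-1.54, SE 0.43), that is 9.09% beside 4.53% of all genes. The glutamate transporters Slc1a2 and Slc1a3 were the 2 of 20 homeostatic astrocyte genes below an unadjusted p of 0.05 (10%, where 4.53% of all genes were lower), with log2 differences of -0.26 (SE 0.11) and -0.18 (SE 0.08), whereas Aqp4, the water channel of astrocyte endfeet, had one of -0.28 (95% interval -0.58 to 0.02). Without sham 6, 4 genes of the list were lower, Aqp4 and the bicarbonate transporter gene Slc4a4 among them, and with the length trend removed neither glutamate transporter gene passed the unadjusted threshold (-0.12 for Slc1a2 and -0.11 for Slc1a3).

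Few microglial and inflammatory genes reached the unadjusted threshold. Of 16 homeostatic microglial genes 1 was lower (6.25%, beside 4.53% of all genes), Tgfbr1, a receptor for TGF-beta (-0.31, SE 0.12). The microglial receptor P2ry12 had a log2 difference of -0.12 (SE 0.09), Tmem119 one of -0.13 (SE 0.10) and Cx3cr1 one of -0.02 (SE 0.08), none past that threshold. None of 17 disease-associated microglial genes, 12 complement genes or 15 interferon response genes had an unadjusted p under 0.05 with all shams, and without sham 6 the complement receptor gene Itgam was lower (-0.37). The complement gene C4b had 17.4, 17.5 and 25.2 CPM after injury and 24.4, 29.4, 16.2 and 19.9 CPM in sham (log2 difference -0.18, 95% interval -0.63 to 0.28), and C1qa one of 0.18 (-0.07 to 0.42). Trem2 and Apoe had log2 differences of 0.05 (95% interval -0.25 to 0.36) and 0.13 (-0.11 to 0.36). Of 27 cytokine and chemokine genes only 10 were expressed highly enough to be tested, and 2 of them were lower (20%, beside 4.53% of all genes). Il33, an alarmin that oligodendrocytes and astrocytes store in the nucleus, had 30.5, 30.0 and 31.0 CPM after injury and 42.6, 53.9, 31.3 and 37.9 CPM in sham, without overlap (log2 difference -0.45, SE 0.16), although the value of sham 35 was close to the injured values. Vegfa, the endothelial growth factor, had a log2 difference of -0.21 (SE 0.09) and did not pass the unadjusted threshold without sham 6.

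**Figure D4:**
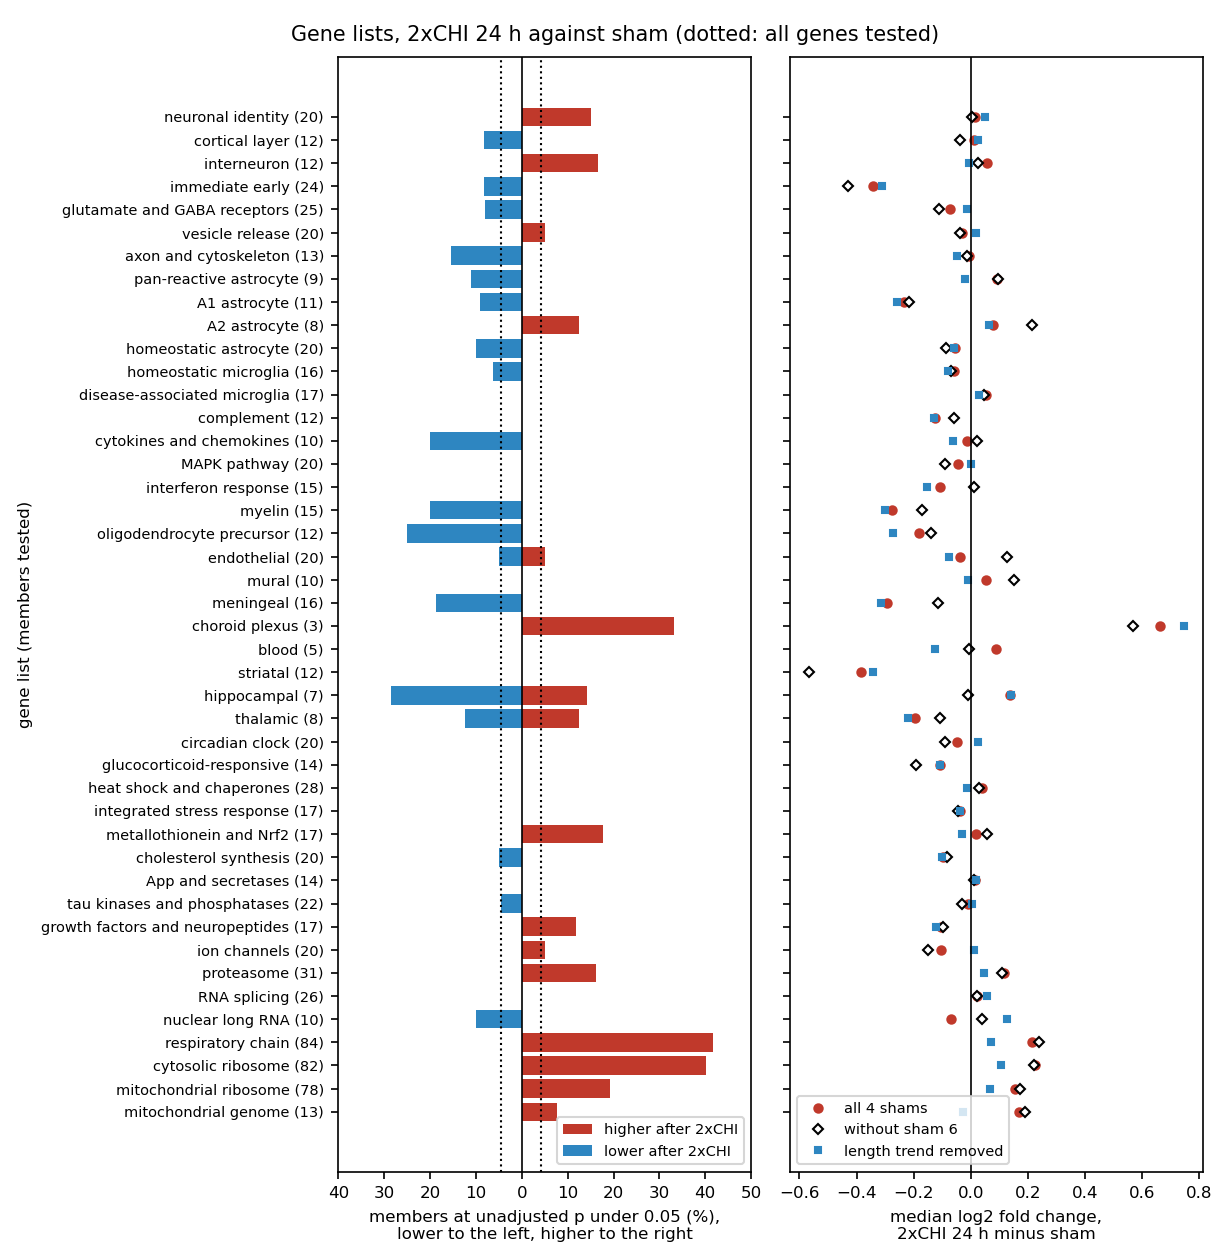
Gene lists in 2xCHI 24 h (n = 3) against sham (n = 4): the percentage of the tested genes of each list with a higher (red) or lower (blue) level at an unadjusted p under 0.05, dotted lines marking all genes tested, and the median log2 difference with all shams (red circles), without sham 6 (open diamonds) and with the length trend removed (blue squares). Respiratory chain and ribosomal lists lie on the higher side (medians 0.16 to 0.23), and the precursor and myelin lists on the lower side (-0.18 and -0.27).

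Among vascular, meningeal and region markers, several sums were set apart by 1 sample. Of 20 endothelial genes 1 was higher, Esam, an endothelial adhesion molecule (0.33, SE 0.12), and 1 lower, the monocarboxylate transporter Slc16a1 (-0.20, SE 0.08). Each was 5% of the list, near the 4.12% of all genes that were higher and the 4.53% that were lower. The tight junction gene Cldn5 had 26.3, 32.7 and 24.9 CPM after injury and 37.2, 20.5, 22.5 and 20.8 CPM in sham, with the highest value in sham 6. Without sham 6, 4 endothelial genes were higher, where 4.06% of all genes were, namely Esam, Cldn5 (log2 difference 0.40, without overlap), Egfl7 and Bsg, none was lower, and the list median went from -0.04 to 0.13. No gene of the 10 mural genes, 5 blood genes or 12 striatal genes had an unadjusted p under 0.05 with all shams. Without sham 6, 3 smooth muscle genes of the mural list were higher, Acta2, Myh11 and Tagln, with log2 differences of 1.51, 1.28 and 0.89, beside 0.71, 0.33 and 0.35 with it, and DESeq2 called Acta2 and Myh11 (adjusted p = 0.0078 and 0.0296). Of 16 meningeal genes 3 were lower (18.8%, beside 4.53% of all genes), Ogn, a small proteoglycan (5.71, 7.54 and 8.49 CPM against 13.6, 11.2, 10.2 and 9.46 CPM, log2 difference -0.62, SE 0.18), Cemip, a hyaluronan-degrading protein (-0.20, SE 0.08) and Fmod, fibromodulin (-0.32, SE 0.14). The summed level of meningeal markers was 1179 CPM in sham 6 and 805 to 849 CPM in the other shams, and without sham 6 only 1 of the 3 had an unadjusted p under 0.05 while 1 other gene, Col1a1, was higher and the list median went from -0.29 to -0.12. Ttr, transthyretin, the main product of choroid plexus, had 20.4, 13.7 and 135 CPM after injury and 17.0, 13.0, 2.96 and 15.6 CPM in sham, so that its log2 difference of 2.21 (SE 0.74) came with 1 high sample, number 29, and was 0.49 without it. Of 7 hippocampal markers 5 had a positive log2 difference (list median 0.14). At an unadjusted p under 0.05, 1 was higher (14.3%, beside 4.12% of all genes) and 2 were lower (28.6%, beside 4.53%). The 2 were the dentate gyrus genes C1ql2 and Prox1 (-1.59, SE 0.53, and -0.28, SE 0.10). Of 8 thalamic markers 7 had a negative log2 difference (list median -0.20). Plekhg1 was lower (9.92, 9.97 and 11.7 CPM against 13.9, 15.6, 16.6 and 15.4 CPM, log2 difference -0.55, SE 0.11) and Tnnt1 higher (0.77, SE 0.32). Each was 12.5% of the list, beside 4.53% of all genes lower and 4.12% higher. Without sham 6 Tnnt1 did not pass the unadjusted threshold (0.68). The summed level of thalamic markers was 65.4 to 73.4 CPM after injury and 80.9 to 87.2 CPM in sham, without overlap. Whether the tissue dissected from each mouse had a part in these values was not tested.

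Few stress and metabolic genes reached the unadjusted threshold. Of 17 metallothionein and oxidative defense genes 3 were higher (17.6%, beside 4.12% of all genes), Sod1, cytosolic superoxide dismutase (111, 138 and 133 CPM against 109.6, 103, 102 and 109 CPM, log2 difference 0.26, SE 0.09), and the metal-binding Mt3 (0.39, SE 0.16) and Mt1 (0.33, SE 0.15). Without sham 6 Mt2 was also higher (0.35), and with the length trend removed 1 gene, Sod1, was. Of 20 genes of cholesterol synthesis 1 was lower, Srebf2, its main transcription factor (-0.17, SE 0.07), and of 22 tau kinases and phosphatases 1 was lower, Ttbk2 (-0.30, SE 0.13), joined by Ttbk1 without sham 6. With all shams the counts were 5% and 4.55% of these lists, near the 4.53% of all genes that were lower. None of 28 heat shock, 17 integrated stress response, 20 circadian clock, 14 glucocorticoid-responsive, 20 MAPK pathway, 26 splicing or 14 amyloid precursor and secretase genes had an unadjusted p under 0.05 with all shams. Without sham 6 the clock gene Clock and the glucocorticoid-responsive Zbtb16 were lower (-0.26 and -0.79), and Mt2, which is also on the glucocorticoid list, the kinase gene Mapk3 (0.32) and 1 gene of the amyloid list were higher. Mouse App had 1935, 1529.8 and 1788 CPM after injury and 1655, 1718, 1808 and 1861 CPM in sham (log2 difference -0.01, 95% interval -0.21 to 0.19), the beta-secretase gene Bace1 a log2 difference of -0.16 (-0.39 to 0.08) and mouse Mapt, which encodes tau, one of -0.01 (-0.18 to 0.17).

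The 2xCHI samples were next set beside those taken 24 h after 1 injury (n = 4) and after 4 injuries (n = 3), which asks how the second injury sits in the series of injuries at the same interval. Against 1xCHI, no gene passed the adjusted threshold (0 of 15224, 0%) and 304 genes (2%) had an unadjusted p under 0.05, 128 higher (0.841%) and 176 lower (1.16%). Samples 17 and 18 of 1xCHI do not have numbers above 18, whereas every 2xCHI sample does. Cytosolic ribosomal genes held 1.40% and 1.29% of their counts, beside 0.967% and 1.10% in 1xCHI samples 26 and 28. The unadjusted count was 255 without sample 17 and 246 without sample 18. What part the sample numbers had in these differences was not tested. Against 4xCHI none passed either (0%), and 564 genes (3.7%) had an unadjusted p under 0.05, 274 higher (1.8%) and 290 lower (1.9%). Both unadjusted shares are below the 8.65% against sham, a difference that was not tested. These comparisons and that with sham share the 3 injured samples, so a sample that stands apart enters all of them.

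Hrk, Zfp264 and Ugt8a were lower in 2xCHI than in each of the other groups. Hrk had 28.4, 30.5, 34.9 and 28.3 CPM in the 4 samples of 1xCHI and 24.1, 28.2 and 28.7 CPM in the 3 samples of 4xCHI, all above the 3 values of 2xCHI (log2 difference -0.71, SE 0.12, against 1xCHI and -0.53, SE 0.12, against 4xCHI). Zfp264 had 3.02, 2.80, 2.54 and 1.77 CPM in 1xCHI and 2.03, 1.00 and 1.88 CPM in 4xCHI, again all above 2xCHI (log2 differences -1.77 and -1.15, SE 0.27 and 0.35). Ugt8a had 54.2, 35.7, 43.5 and 51.0 CPM in 1xCHI and 41.5, 45.5 and 49.0 CPM in 4xCHI (log2 differences -0.44 and -0.42, SE 0.14 and 0.09). Of the 15 myelin genes 3 were lower than in 1xCHI and 4 lower than in 4xCHI at an unadjusted p under 0.05, and of the 12 precursor genes 3 and 2, where 1.16% and 1.9% of all genes were lower. The list medians were -0.28 and -0.27 for myelin and -0.25 and -0.21 for precursors. Pdgfra had 30.6, 34.5, 41.4 and 36.0 CPM in 1xCHI, which overlapped the 2xCHI values (log2 difference -0.09, SE 0.12), and 45.5, 38.4 and 47.0 CPM in 4xCHI, all above them (log2 difference -0.39, SE 0.12).

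Levels of Etnppl, an astrocytic enzyme of phosphoethanolamine breakdown, led the genes higher than in 1xCHI, with 22.8, 23.7 and 23.4 CPM after 2 injuries and 11.0, 12.2, 16.3 and 16.0 CPM after 1 (log2 difference 0.74, SE 0.15). Its shams had 14.7, 16.0, 13.4 and 21.2 CPM, also below all 2xCHI values (log2 difference 0.51, SE 0.14). Kcnab3, a potassium channel beta subunit, had 146, 114 and 138 CPM after 2 injuries and 101, 92.3, 97.5 and 81.3 CPM after 1 (log2 difference 0.52, SE 0.11). Tspan11, Mlip and Kcns1 completed the 5 leading genes of higher level, with log2 differences of 0.88, 0.39 and 0.41, and Maml2, Hmgn2 and Dscaml1 followed Zfp264 and Hrk on the lower side with -0.44, -0.79 and -0.35. Interferon response genes were lower than after 1 injury, with 8 of 15 at an unadjusted p under 0.05, where 1.16% of all genes were, none higher and a median of -0.53. Ifit3, an antiviral interferon-induced gene, had 8.95, 6.66 and 10.9 CPM after 2 injuries and 18.6, 13.7, 11.6 and 13.1 CPM after 1 (log2 difference -0.68, SE 0.21), beside 11.2, 10.6, 7.15 and 7.38 CPM in sham. Oasl2, Irf7, the regulator of interferon transcription, and Bst2, the membrane protein tetherin, had log2 differences of -0.95, -0.98 and -1.03 from 1xCHI. 1xCHI sample 17 had the highest value of all 4 genes.

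Npy led the genes higher than in 4xCHI, which had 39.1, 44.7 and 47.2 CPM, all below the 3 values of 2xCHI (log2 difference 0.50, SE 0.09). Adam33, a membrane-anchored metalloproteinase, had 14.6, 19.4 and 12.6 CPM after 2 injuries and 8.03, 7.16 and 8.91 CPM after 4 (log2 difference 0.95, SE 0.18), beside 9.06, 11.9, 8.70 and 11.8 CPM in sham. 4933432I09Rik, Glcci1 and Phf21b had log2 differences from 4xCHI of 1.58, 0.56 and 0.53. On the lower side Unc13c, a presynaptic priming protein, had 24.9, 22.0 and 23.1 CPM after 2 injuries and 31.4, 34.1 and 32.2 CPM after 4 (log2 difference -0.49, SE 0.09), and Gm10171, Clmn and Zfpm2 had log2 differences of -1.26, -0.46 and -0.77. Immediate early genes were lower than after 4 injuries for 7 of 24 genes, where 1.9% of all genes were, with none higher (median -0.35), among them Btg2 (log2 difference -1.52, SE 0.40), Npas4 (-1.24, SE 0.43) and Junb (-1.10, SE 0.47). Junb values after 4 injuries were 33.7, 181 and 86.3 CPM against 60.9, 38.0 and 42.3 CPM after 2, and the 4xCHI sample 25 held the highest value. Against 1xCHI the median of this list was positive (0.24), with 3 genes higher, Egr1, Bdnf and Egr3 (log2 differences 0.67, 0.44 and 0.41), where 0.841% of all genes were, and 1 lower, Npas4 (-0.73). Gfap was lower than after 4 injuries, which had 199.5, 149.8 and 246 CPM, all above the 3 values of 2xCHI (log2 difference -0.59, SE 0.16).

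**Figure D5:**
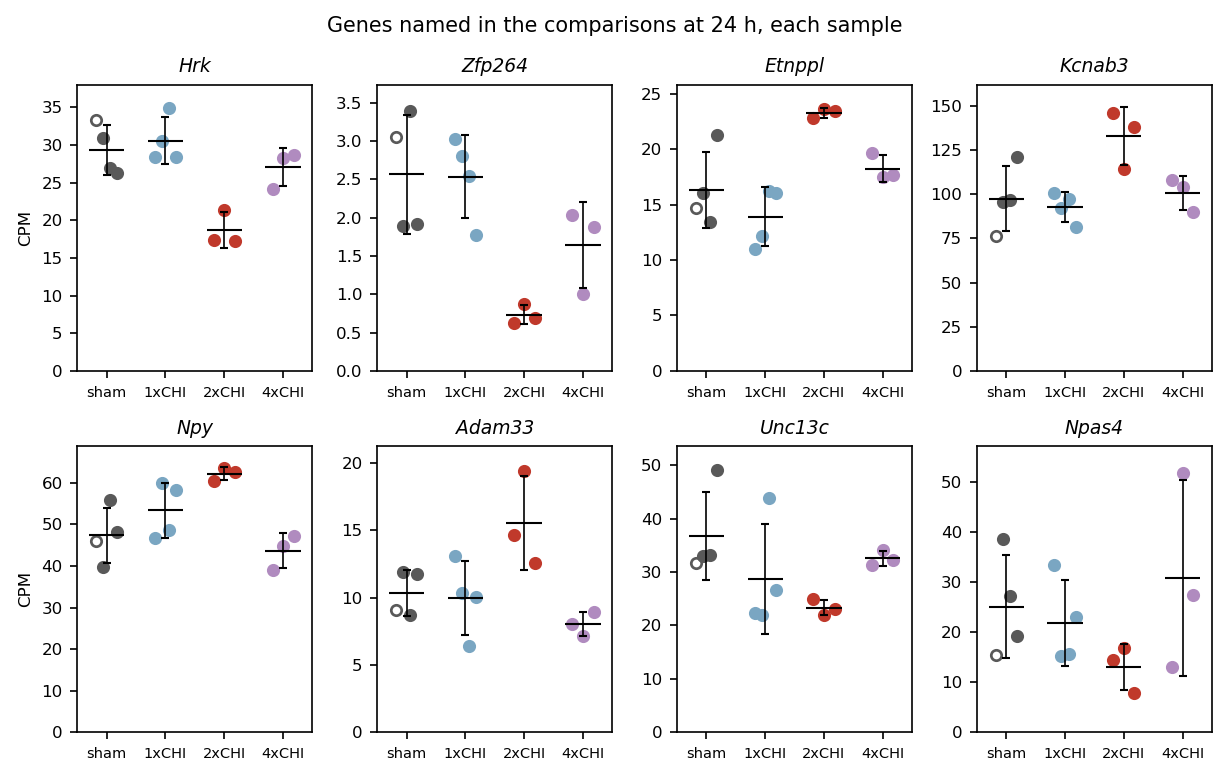
Levels in CPM (linear axes from 0) of genes that led the comparisons in sham (n = 4), 1xCHI (n = 4), 2xCHI (n = 3) and 4xCHI (n = 3) samples, injured groups at 24 h; points are samples, the open circle is sham 6, horizontal lines are means and error bars 1 SD. All 2xCHI values of Hrk and Zfp264 lie below those of the other 3 groups, and all values of Etnppl lie above them.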

How the data were processed

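RNA sequencing of bulk cortex was analysed from the table of estimated counts per gene that the authors deposited for the whole series. Sequencing, alignment and counting were done by a sequencing company, the aligner is not given in the sources used here, and the submitters' processing notes name mm10 as genome build. Of the values 4.46% were not whole, and all were rounded to whole numbers. Groups came from the labels. The members and the gene lists were chosen with earlier results of these data known, so no list is an independent test. Sample 30 (3xCHI) was left out, as the series' design text states, because its animal stood apart in protein data. Nothing in the sources used here names litters or processing batches, so the fits could not include either, and the p-values do not account for them.

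Genes with a count below 10 in more than 4 of the 39 samples were removed, which left 15224 of 55539. Counts were scaled by TMM and tested with edgeR 4.0.16 (glmQLFit and glmQLFTest, two-sided, Benjamini-Hochberg adjustment over all genes tested) under R 4.3.3. Each comparison was fitted on its own 2 groups. CPM values use TMM factors over the 39 samples, log2 differences are 2xCHI minus the other group, and 95% intervals come from the standard error and the degrees of freedom of the fit. The depth was 17903140 to 27859530 counts per sample. No 2 samples of a group were near duplicates, since the chi-square per gene of 9 pairs within groups was 7.52 to 32.1.

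Genes named in the text were up to 12 per direction with the smallest p against sham, a mean of at least 1 CPM and no overlap between groups; in each list, its first 3 members and up to 5 others with the smallest unadjusted p under 0.05; the human transgenes; and up to 5 per direction in the comparisons with 1xCHI and 4xCHI under the same rule. Further genes are named as examples of a list or where the text says so, and a few that the rule selects are not reported here. Alternatives were DESeq2 1.42.0, limma-voom (limma 3.58.1), other scaling factors and filters, a fit on all 39 samples with and without sample number above 18 as covariate, and leaving out each sample in turn. Added after the data were seen were the removal of a trend with exonic length and DESeq2 without sham 6. For the length alternative, a smooth curve of each sample's deviation on exonic length was subtracted. Exonic lengths and gene positions came from GENCODE M21 on GRCm38. On simulated counts for the 3 against 4 samples and 15224 genes, edgeR called 84% of 100 genes changed by 1 on the log2 scale and 26% of 100 changed by 0.5, and DESeq2 88% and 45%, while 14 unchanged genes were called by edgeR and 27 by DESeq2.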

Additional observations from a re-analysis of the deposited data

Results flagged for a closer look

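Of 181 sets of 4 sham values tested by Dixon's ratio, the gap of the most extreme sample to its neighbor divided by the range of the group, 15 were flagged, and chance flags about 1 in 20. Sham 6 stood apart in the precursor gene Cspg4 (ratio 0.893, 20.3 CPM against 14.7 to 15.3 CPM), the endothelial gene Cldn5 (0.88, 37.2 CPM against 20.5 to 22.5 CPM), the smooth muscle gene Myh11 (0.878, 19.2 CPM against 2.93 to 4.90 CPM), the summed meningeal markers (0.882, 1179 CPM against 805 to 849 CPM), the summed cholesterol synthesis genes (0.886, 1519 CPM against 1479 to 1483 CPM) and, on the low side, Kcns1 (0.853, 22.3 CPM against 35.1 to 37.3 CPM). Sham 20 stood apart in summed counts (0.887, 27859530 against 17903140 to 19028800), Junb (0.924, 131 CPM against 46.8 to 53.2 CPM), Rtl8a (0.888, 88.2 CPM against 84.4 to 84.8 CPM), the summed genes of the mitochondrial genome (0.834, 57683 CPM against 53004 to 53779 CPM) and, on the low side, Vcan (0.859, 15.8 CPM against 19.3 to 19.8 CPM). Sham 39 stood apart in the summed striatal markers (0.937, 1158 CPM against 252 to 309 CPM), Unc13c (0.913, 49.0 CPM against 31.8 to 33.3 CPM) and, on the low side, Gpr17 (0.921, 36.9 CPM against 40.9 to 41.3 CPM) and Cemip (0.89, 20.8 CPM against 22.6 to 22.9 CPM). The low sham values of Vcan and Gpr17 were still above all 2xCHI values of these genes.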

How the results depend on the processing

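The count of genes at an adjusted p under 0.05 against sham was 0 in edgeR, 38 in DESeq2, 14 in DESeq2 without sham 6, 4 with no filter on low counts (all lower: Tgtp1, Gm5940, Hipk2 and ENSMUSG00000083012, 1 of 2 features with the symbol Fam220a) and 0 with any sample left out. At an unadjusted p under 0.05 it was 679 when all 39 samples shared the fit and 799 with the length trend removed, and from 658 (without 2xCHI 21) to 2734 (without 2xCHI 19) with 1 sample left out, beside 1317. Against 1xCHI DESeq2 called 4 genes (Etnppl, Hrk, Tspan11 and Zfp264), the unadjusted count was 624 with no filter and 209 to 720 with 1 sample left out (720 without 1xCHI 26). Against 4xCHI DESeq2 called 2 genes (Adam33 and Npy), 26 were called with no filter, and the unadjusted count was 1194 with no filter, 295 in the fit on 39 samples and 258 (without 2xCHI 29) to 1968 (without 2xCHI 19) with 1 sample left out.

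Of 860 list members 5 were called by DESeq2, beside 38 of 14633 genes over all (0.26%). DESeq2 without sham 6 called 4 list members, beside 14 genes over all (0.0957%). The number of higher respiratory chain genes was 6 in the fit on 39 samples, 6 with the length trend removed and 4 to 57 with 1 sample left out. That of cytosolic ribosomal genes was 1, 9 and 3 to 65, and that of mitochondrial ribosomal genes 7, 6 and 4 to 29, with 9 in DESeq2 without sham 6. The number of lower myelin genes was 6 in DESeq2, 8 with no filter, 1 in the fit on 39 samples, 1 with sample number as covariate, 7 with the length trend removed and 2 to 8 with 1 sample left out, and that of precursor genes was 5 with the length trend removed and 3 to 5. The cause of these changes was not tested. Of 1513 values of the 89 genes given with values and an unadjusted p under 0.05, 243 were past that threshold no longer and none changed direction. Of 660 list medians 31 moved by more than the spread between samples. No paired analysis was possible because the groups compared share no replicate numbers. With 3 and 4 samples, differences near 0.5 on the log2 scale were mostly missed on simulated counts, so the absence of a call does not show equal levels.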

Other observations

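Guanylate-binding proteins, interferon-inducible GTPases that were not among the lists and were looked at after their values were seen, had lower mean levels after 2xCHI than in sham. All 7 tested had a negative log2 difference (median -0.86), and 4 had an unadjusted p under 0.05, 3 of 7 without sham 6, where 7683 of the 15224 genes tested had a negative difference and 4.53% were lower at that threshold. Gbp3 had 4.30, 2.57 and 3.42 CPM after injury and 6.44, 5.39, 7.31 and 6.76 CPM in sham (log2 difference -0.92, SE 0.21), and Gbp4, Gbp5 and Gbp9 had log2 differences of -2.10, -0.92 and -0.86. Of 5 immunity-related GTPases 2 were lower, Iigp1 (0.532, 0.523 and 1.01 CPM against 3.00, 0.964, 2.26 and 1.86 CPM) and Tgtp2 (1.16, 0.784 and 0.481 CPM against 1.86, 0.893, 5.16 and 4.62 CPM, log2 difference -1.91). These genes have near copies, so their levels are uncertain. Of 15 tested genes whose names begin with H2-, 2 were lower, H2-K1 (-0.37, SE 0.09) and H2-Q4 (-1.04, SE 0.24), while H2-D1 (-0.08, SE 0.08) and B2m, the light chain of MHC class I (-0.04, SE 0.08), were not below the threshold.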
